A study of Mus musculus with 3 samples.

Results

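The 10 genes described here are established genes of white adipocytes, the fat-storing cells of skin and other depots. They were taken by symbol from the 32285 genes of the spatial matrices, and all 10 were present. Adipoq (adiponectin), Lep (leptin), Retn (resistin) and Cfd (complement factor D, or adipsin) encode secreted proteins. Plin1 and Plin4 (perilipins) and Cidec encode proteins of the lipid droplet. Lpl (lipoprotein lipase) and Fabp4 (a fatty acid binding protein) serve fatty acid uptake and transport, and Pparg encodes the transcription factor PPARγ.

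The data are 3 Visium sections of mouse skin wounds, 1 each at Day 3, Day 7 and Day 14 post injury. Visium captures polyadenylated RNA on a slide of barcoded spots, each of which can hold several cells, and counts molecules as unique molecular identifiers (UMIs). The mice were C57BL/6J, age-matched adult males of 7 to 12 weeks, with no allele or agent given for these samples. The wounds were full-thickness excisions of dorsal skin made with a biopsy punch and harvested with a wider punch, so that a section holds the wound and its margin. Each day is 1 section, and no section of unwounded skin was analysed here. Differences between days are therefore differences between 3 sections, and no test between days was possible. The intervals below are exact 95% intervals that cover counting error only. In pooled counts, fewer adipocytes and less RNA per adipocyte cannot be told apart.

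White adipocytes hold triglyceride in a large lipid droplet coated by perilipins. In mouse dorsal skin they form a layer of dermal fat below the dermis and above the panniculus carnosus, a sheet of striated muscle. PPARγ, together with C/EBP factors, drives their differentiation and much of the gene programme listed above. Dermal adipocytes are known to release stored lipid soon after injury and to re-form as skin regenerates.

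Each slide carried 4992 spots, and the 3 slides shared all 4992 barcodes, which are position codes and not cells. The deposited tissue mark covered 664, 549 and 697 spots of the Day 3, 7 and 14 slides. These marked spots held 1772259, 4442962 and 4611723 UMIs, with a median of 1513, 6687 and 4827 UMIs per spot. The unmarked spots held another 1703210, 6457066 and 4715272 UMIs, which is 49.0%, 59.2% and 50.6% of the slide. Their median depth was 91, 453 and 350 UMIs, but 360, 1477 and 1282 of them had at least 1000 UMIs. Every gene is therefore given under tissue and outside the mark. Levels are UMIs of the gene per 1000000 UMIs of all genes in the same spots (CPM). They are compared within a gene, not between genes.

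A limit applies to all levels under tissue. The 1248 spots with the fewest UMIs on each slide, a set chosen after the data were seen, had a median of 21, 227.5 and 196 UMIs. The 10 genes together made up 6105, 8747 and 2448 CPM there on Days 3, 7 and 14. Under tissue they made up 5380.1, 6838 and 1363 CPM. The pooled level of the genes under the tissue mark was thus not above that of the emptiest spots on any slide, and is read as a level on the slide, not as expression by the marked tissue.

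The promoters of Adipoq, Retn and Lep are shown because Adipoq and Retn UMIs kept a near-constant ratio over the days, whereas Lep did not follow them. Each window is the 250 bases before the RefSeq start in GRCm38.p6, printed 5′ to 3′ on the gene's strand. Capitals mark matches to TTNNGNAA, a loose form of the C/EBP core. Adipoq spans chr16:23146536-23158028 on the plus strand and its window is chr16:23146286-23146535. Retn spans chr8:3655770-3660110 on the plus strand and its window is chr8:3655520-3655769. Lep spans chr6:29060220-29073877 on the plus strand and its window is chr6:29059971-29060220.
Adipoq: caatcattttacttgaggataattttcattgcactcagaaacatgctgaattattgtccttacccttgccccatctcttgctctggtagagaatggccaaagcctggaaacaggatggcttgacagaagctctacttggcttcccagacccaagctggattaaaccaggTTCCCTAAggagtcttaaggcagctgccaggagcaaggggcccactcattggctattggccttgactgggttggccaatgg
Retn: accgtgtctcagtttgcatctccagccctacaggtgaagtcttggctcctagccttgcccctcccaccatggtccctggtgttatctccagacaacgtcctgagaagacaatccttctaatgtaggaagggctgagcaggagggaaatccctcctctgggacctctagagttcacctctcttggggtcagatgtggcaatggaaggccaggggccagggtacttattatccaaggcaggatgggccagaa
Lep: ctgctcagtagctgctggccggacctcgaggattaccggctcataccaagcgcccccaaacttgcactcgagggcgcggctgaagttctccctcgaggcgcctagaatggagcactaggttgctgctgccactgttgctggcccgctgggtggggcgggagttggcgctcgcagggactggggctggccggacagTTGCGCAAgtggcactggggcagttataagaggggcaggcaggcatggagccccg
The Adipoq window held 1 match to the C/EBP core, on the minus strand, at bases -81 to -74 from the start. The Lep window held the palindrome TTGCGCAA at bases -55 to -48, which is also a match to the core on both strands. The Retn window held none of the motifs searched.

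Promoters of 8 of the 10 genes were in the RefSeq table, 11 windows in all, and those of Lpl and Fabp4 were not used here. Exact letters were searched on both strands. TTNNGNAA occurred in windows of Adipoq, Lep, Plin1, Cidec and Pparg, and in 36.8% of the 32851 mouse promoters of the table. The palindrome TTGCGCAA, found in Lep, occurred in 0.164% of them. AGGTCA, the hexamer recognised by many nuclear receptors, occurred in 2 of the 3 Pparg windows and in 14.0% of all promoters. The repeat of AGGTCA with 1 base between the copies, bound by PPARγ with its partner RXR, occurred in none of the 11 windows and in 0.0335% of all promoters. TATAAA occurred in 1 Pparg window and in 12.4% of all promoters. These matches are letters in a window, not binding sites.

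The level of the 10 genes together was 5380.1 CPM (5273 to 5489) on Day 3, 6838 CPM (6762 to 6916) on Day 7 and 1363 CPM (1329 to 1397) on Day 14 under tissue. The Day 14 section was the lowest by far. Its level was lower than on Day 7 by a log2 ratio of -2.33 (-2.37 to -2.29) and lower than on Day 3 by -1.98 (-2.03 to -1.94). Day 7 stood 0.35 (0.31 to 0.38) above Day 3. Cfd and Fabp4 supplied most of the UMIs, and of these Fabp4 was higher on Day 7. Without both the levels were 1306, 1246 and 405 CPM, and the Day 7 over Day 3 log2 ratio was -0.07 (-0.14 to 0.0030). Day 14 stayed below both other days without them, at -1.62 against Day 7 and -1.69 against Day 3.

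A gene is called higher or lower here where the nearer end of the interval of the ratio lies past 2-fold, provided that the 2 pools together hold 50 or more of its UMIs. From Day 7 to Day 14, 8 of the 10 genes were called lower under tissue, against 3.69% of the 11746 genes tested, and none was called higher, against 5.7%. From Day 3 to Day 14, 7 of the 10 were called lower, against 3.72% of 10955 genes, and none higher, against 4.66%. The Plin1 call among these sat at the threshold, with an interval end of -1.005, and was lost in 4 of 7 alternatives, with the ratio at -1.07 (-1.63 to -0.50) without the 10 spots with the most UMIs of the genes. From Day 3 to Day 7, Lep was called higher, against 2.5% of 10541 genes, and none was called lower, against 3.16%. The median log2 ratio of the 10 genes was -2.05 between Days 7 and 14, -1.69 between Days 3 and 14 and 0.18 between Days 3 and 7. The corresponding medians of all genes tested were 0.13, 0.18 and 0.04. Plin4 and Pparg were the genes without a call in any pair of days.

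**Figure D1:**
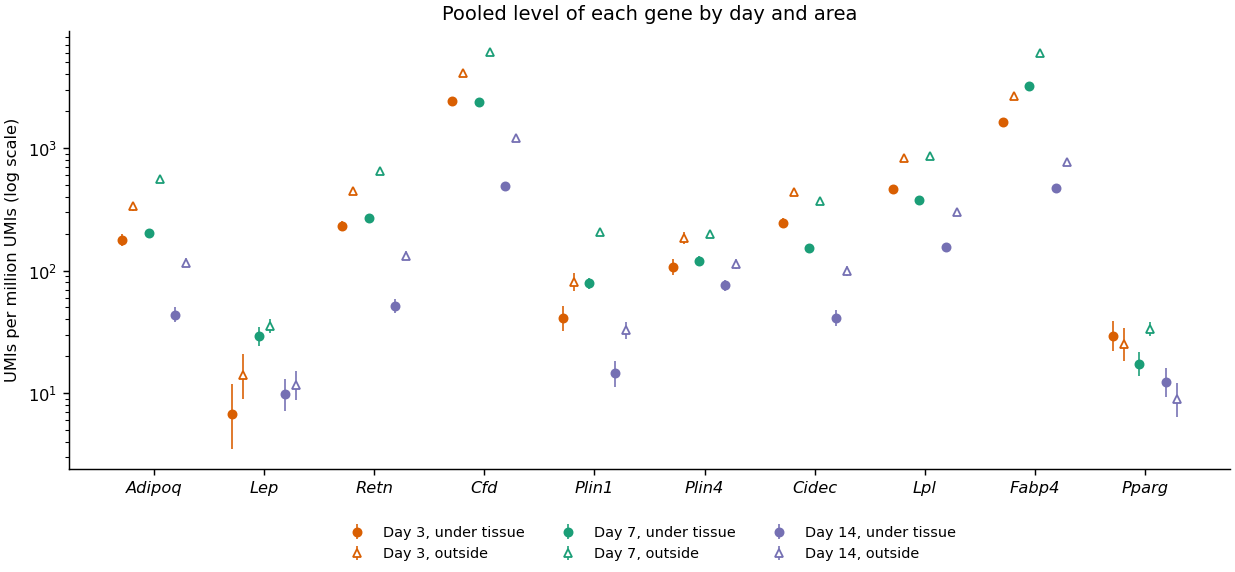
Pooled level of each gene in CPM (log scale), filled circles under tissue and open triangles outside the mark, with exact Poisson 95% intervals of counting error, 1 section per day. Day 14 lies below Day 7 for every gene in both areas, for example 43.8 against 201 for Adipoq under tissue.

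Among the secreted factors, Adipoq, an insulin-sensitising hormone made almost only by adipocytes, stood at 177 CPM (158 to 197; 313 UMIs) on Day 3, 201 CPM (188 to 215; 893 UMIs) on Day 7 and 43.8 CPM (38.0 to 50.3; 202 UMIs) on Day 14 under tissue. The pooled levels of Days 3 and 7 were close, at a ratio of 1.14 (0.999 to 1.299), and Day 14 was apart. Its log2 ratio was -2.20 (-2.43 to -1.98) against Day 7 and -2.01 (-2.27 to -1.75) against Day 3. The closeness of Days 3 and 7 rested on few Day 3 spots. Without the 10% of spots highest in the other 9 genes, Adipoq stood at 76.5, 190 and 41.6 CPM in order of day. Outside the mark Adipoq stood at 334, 560.2 and 116 CPM, with the same order of days and every value above its counterpart under tissue.

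Retn, encoding an adipocyte hormone of mice linked to insulin resistance, ran at 232, 269 and 51.6 CPM under tissue and at 443, 655 and 133 CPM outside. The order of days was that of Adipoq. Under tissue, Day 7 stood 0.21 (0.05 to 0.38) above Day 3 on the log2 scale, and Day 14 differed from Day 7 by -2.38 (-2.59 to -2.18). Cfd, encoding the protease that activates factor B of the alternative complement pathway, ran at 2430.2, 2392 and 487 CPM under tissue. Days 3 and 7 did not separate beyond counting error for Cfd, at a log2 ratio of -0.02 (-0.07 to 0.03), and Day 14 was -2.30 (-2.36 to -2.23) below Day 7. Outside, Cfd stood at 4081, 6128 and 1213 CPM. Cfd spans chr10:79890853-79892655 on the plus strand.

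Lep, encoding the satiety hormone leptin, was sparse, with 12, 130 and 45 UMIs under tissue, or 6.77, 29.3 and 9.76 CPM. Day 7 was high and Days 3 and 14 were low. The log2 ratio of Day 7 to Day 3 was 2.11 (1.26 to 3.101), and that of Day 14 to Day 7 was -1.58 (-2.11 to -1.08). Between Days 3 and 14 the interval held 0 (0.53, -0.42 to 1.58). Outside, Lep stood at 14.1, 35.3 and 11.7 CPM on 24, 228 and 55 UMIs. No spot decided the levels under tissue, where the highest held 1, 3 and 2 UMIs, but 5 of the 24 Day 3 UMIs outside lay in 1 spot. The Day 7 level under tissue was also that of the emptiest spots, 29.6 CPM on 8 UMIs.

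Among the droplet genes, Plin1, whose protein coats the adipocyte droplet and restrains lipolysis, stood at 41.2, 78.6 and 14.5 CPM under tissue on 73, 349 and 67 UMIs. It was highest on Day 7 and lowest on Day 14. Day 7 stood 0.93 (0.56 to 1.32) above Day 3 on the log2 scale, short of a call, and Day 14 was called lower than Day 7, at -2.43 (-2.83 to -2.05). Cidec, whose protein fuses droplets, took another order, with 245, 154 and 41.0 CPM. It was highest on Day 3, and Day 7 lay below Day 3 by -0.67 (-0.85 to -0.49), where Plin1 lay above. Day 14 was called lower than both other days, at -1.91 (-2.15 to -1.68) and -2.58 (-2.84 to -2.33). Without the 10% of spots highest in the other 9 genes, Cidec stood at 110, 144 and 36.4 CPM, so that Day 3 was no longer the highest. Plin1 spans chr7:79720218-79732903 and Cidec chr6:113424634-113435760, both on the minus strand.

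Plin4, which encodes a perilipin of small droplets and is also expressed in striated muscle, changed least among the droplet genes. It stood at 107 CPM (92.5 to 124), 121 CPM (111 to 131) and 75.7 CPM (67.9 to 84.0) under tissue. The 3 days lay within a narrow range, and no pair of days was called. Day 14 differed by -0.67 (-0.87 to -0.48) from Day 7 and by -0.50 (-0.76 to -0.24) from Day 3 on the log2 scale. In the emptiest spots Plin4 stood at 117, 107 and 83.6 CPM on 3, 29 and 20 UMIs, close to these values. The Day 3 interval there was wide, at 24.2 to 343 CPM. Plin4 spans chr17:56100591-56109803 on the minus strand.

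Of the genes of fatty acid supply, Lpl, encoding the lipase that frees fatty acids from lipoproteins at the vessel wall, ran at 467, 376 and 157 CPM under tissue and 833, 862 and 299.7 CPM outside. Pooled under tissue it was highest on Day 3. Each later day was lower, by -0.31 (-0.43 to -0.19) on Day 7 against Day 3 and by -1.26 (-1.39 to -1.14) on Day 14 against Day 7. Without the 10% of spots highest in the other 9 genes, Lpl stood at 330, 353 and 142 CPM, so that Day 3 was no longer the highest. Lpl is also made by muscle and macrophages. Fabp4, which is used by adipocytes and by macrophages and capillary endothelium, ran at 1644, 3199.7 and 470.1 CPM under tissue and 2673, 5964 and 774 CPM outside. It was highest on Day 7, at 0.96 (0.90 to 1.02) above Day 3, and of the 10 genes had the lowest ratio of Day 14 to Day 7, at -2.77 (-2.83 to -2.70) against Day 7. Lpl spans chr8:68880491-68907448 on the plus strand and Fabp4 chr3:10204088-10208576 on the minus strand.

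Pparg was the sparsest gene beside Lep, with 52, 77 and 57 UMIs under tissue, or 29.3 CPM (21.9 to 38.5), 17.3 CPM (13.7 to 21.7) and 12.4 CPM (9.36 to 16.0). Day 3 was the highest, and Days 7 and 14 did not separate, at a log2 ratio of -0.49 (-1.01 to 0.03). On Day 3, 12 of the 52 UMIs lay in 1 spot of 1824 UMIs that held no Adipoq UMI and 276 UMIs of a list of 10 skeletal muscle genes. Without that spot the Day 3 level was 22.6 CPM. With the spot, Day 14 differed from Day 3 by -1.25 (-1.82 to -0.68) on the log2 scale. Pparg spans chr6:115360951-115490399 on the plus strand.

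**Figure D2:**
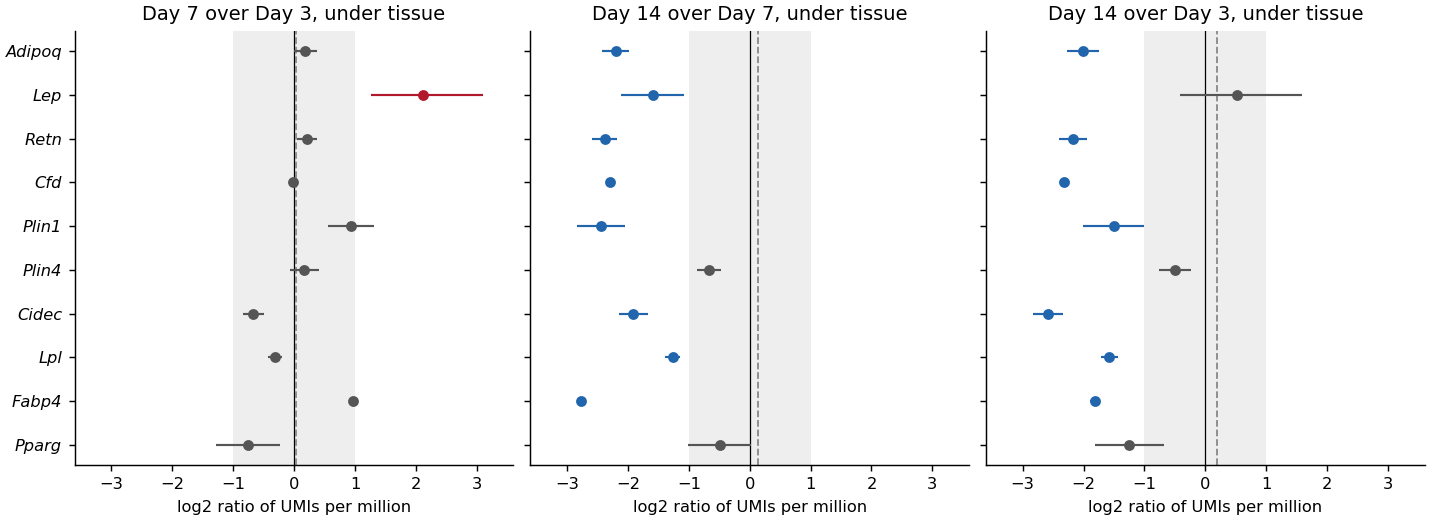
Log2 ratio of CPM between pairs of days under tissue for each gene, with exact 95% intervals of counting error, a grey band for ratios within 2-fold, a dashed line at the median of all genes, and red or blue for genes called higher or lower. Between Days 3 and 7 the genes lie on both sides of 0, from -0.76 for Pparg to 2.11 for Lep, and between Days 7 and 14 all 10 lie below 0.

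Outside the mark the same 10 genes stood at 9105, 15010.2 and 2801 CPM together, above the level under tissue on each slide. The log2 ratio of outside over under tissue was 0.76 (0.72 to 0.80), 1.13 (1.12 to 1.15) and 1.04 (0.996 to 1.08) on the 3 slides in order of day. The medians over all genes tested were -0.38, -0.38 and -0.54, so that most genes leaned the other way. As a mean over single spots, in place of pooled UMIs, the ratio of the 10 genes was 0.039, 0.38 and 0.95, so that the Day 3 excess was not seen with all spots weighted alike. None of the 9 members with enough UMIs was called higher outside on Day 3, against 1.01% of 7998 genes, and none lower, against 3.64%. On Day 7, 6 of 10 were called higher outside, namely Adipoq, Retn, Cfd, Plin1, Cidec and Lpl, against 1.4% of 11525 genes, and none lower, against 1.94%. On Day 14, Adipoq, Retn, Cfd and Cidec were called higher outside, against 1.05% of 11475 genes, and none lower, against 1.49%.

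Skeletal muscle genes also leaned to the outside spots. The list of 10 muscle genes (Acta1 and Mylpf hold the most UMIs) summed to 38195, 52791 and 59474 CPM under tissue and to 79317, 115826 and 123817 CPM outside. On Days 3, 7 and 14, 5, 8 and 6 of the 10 muscle genes were called higher outside, against 1.01%, 1.4% and 1.05% of all genes tested. Their part in the outside excess of the adipocyte genes was not tested. Between days, the muscle list was higher on Day 7 than on Day 3 in both areas, as were the 10 genes together. On Day 14 the muscle list stood above Day 7 in both areas, where the 10 genes together stood below.

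Pparg and Lep did not share the outside excess on every slide. Pparg had 29.3, 17.3 and 12.4 CPM under tissue against 25.2, 33.5 and 8.91 CPM outside, so that its log2 ratio was -0.22 (-0.83 to 0.39) on Day 3 and -0.47 (-1.08 to 0.13) on Day 14, both holding 0. On Day 7 it was 0.95 (0.57 to 1.34). For Lep the log2 ratio on Day 3 was 1.06 (0.0013 to 2.19) on 36 UMIs, too few for a call. It was 0.27 (-0.05 to 0.59) on Day 7 and 0.26 (-0.34 to 0.86) on Day 14, with intervals that held 0 where those of Adipoq began at 1.37 and 1.17. 

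Between days, Day 14 was again the lowest in the outside spots. There 9 of 10 genes were called lower on Day 14 than on Day 7, all but Plin4, against 2.86% of 11466 genes, and none higher, against 2.79%. Plin1 and Fabp4 were called higher on Day 7 than on Day 3, against 1.98% of 10599 genes, and none lower, against 2.94%. Adipoq, Retn, Cfd, Cidec, Lpl and Fabp4 were called lower on Day 14 than on Day 3, against 2.96% of 9944 genes, and none higher, against 2.59%. Day 7 stood further above Day 3 outside than under tissue, at a log2 ratio of 0.72 (0.70 to 0.75) for the 10 genes together. Cfd, whose pooled level was alike on these days under tissue, stood 0.59 (0.55 to 0.62) higher on Day 7 outside.

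The genes were concentrated in few places. The 50 spots of each slide with the highest share of UMIs from the 10 genes, a set defined by these values and so only described, held 47.0%, 28.2% and 21.7% of the member UMIs of the slide on Days 3, 7 and 14. They held 5.84%, 5.63% and 0.985% of all UMIs. On Day 3, 11 of the 50 were marked as tissue, and on Days 7 and 14 all 50 lay outside the mark. Their median distance from the nearest marked spot was 3.98, 15.8 and 6.93 spot pitches, 1 pitch being the distance between neighbouring spot centres. The 50 spots formed 20, 12 and 17 groups of adjacent spots, of which the largest held 11, 27 and 19 spots.

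**Figure D3:**
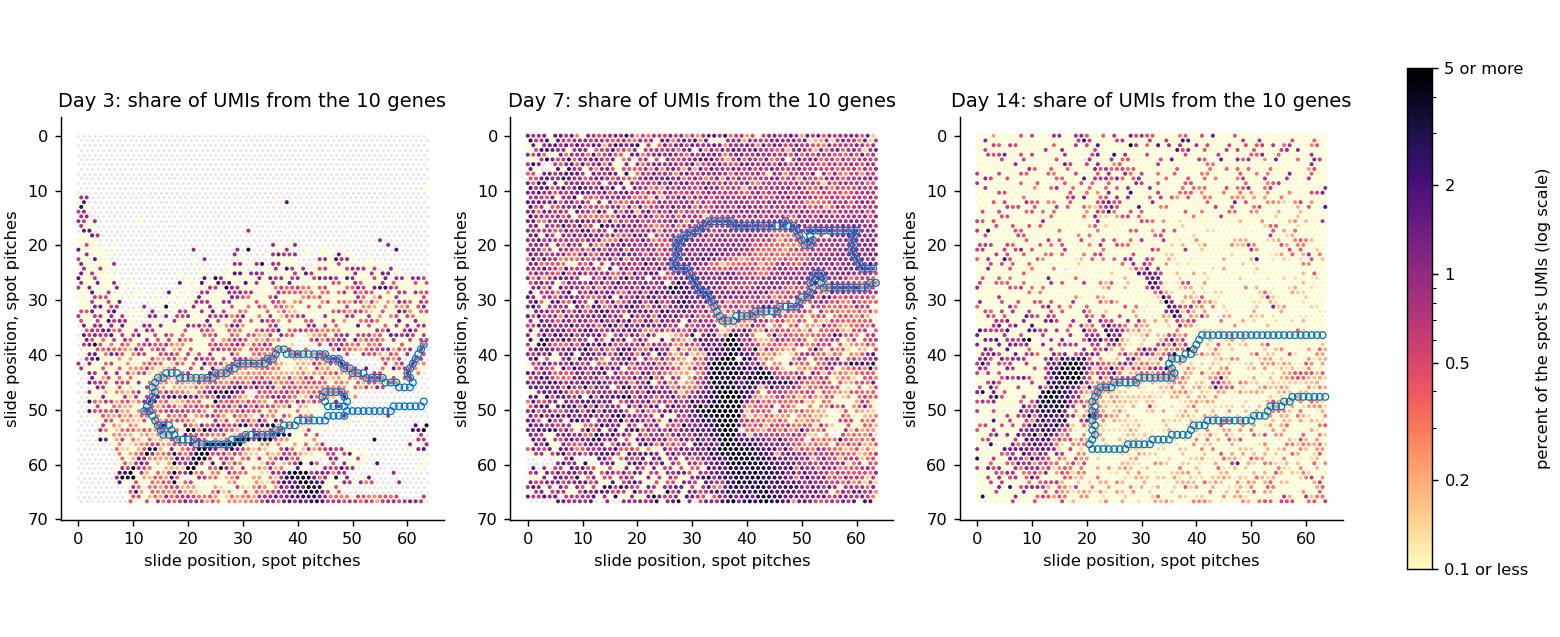
Share of each spot's UMIs that came from the 10 genes, over the 3 slides, with the border of the marked tissue as blue rings and spots under 100 UMIs in grey. The highest spots form groups of up to 27 adjacent spots, and all 50 of the highest on Days 7 and 14 lie outside the marked tissue.

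The high level in these spots is fixed by their choice. Their UMIs are also part of the pools above, so an order of days here is no second measurement. The members made up 5.79%, 5.85% and 4.59% of all UMIs in the 50 spots. Adipoq reached 2167, 2449 and 2296 CPM there and Retn 2911, 2997 and 2459 CPM. Cfd reached 28005, 25928 and 21849.6 CPM. Fabp4 was lowest in the Day 14 patches, at 16894, 21052 and 11839 CPM. The 50 spots held 203036, 613673 and 91901 UMIs of all genes, so that the Day 14 values rest on the fewest.

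Of the droplet genes, Plin1 reached 493, 681 and 566 CPM in the 50 spots. Cidec reached 3034 CPM (2799 to 3283) on Day 3, 1377 CPM (1286 to 1473) on Day 7 and 1687 CPM (1432 to 1974) on Day 14, highest on Day 3. Plin4 reached 783 CPM (666 to 915), 650.2 CPM (588 to 717) and 1295 CPM (1073 to 1550), highest on Day 14. Lep reached 73.9, 109 and 131 CPM on 15, 67 and 12 UMIs, and Pparg 163, 135 and 87.1 CPM on 33, 83 and 8 UMIs. The intervals of Lep overlapped between all 3 days.

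The level was lower with distance from these patches, up to a point. On Day 3, outside the mark, the 10 genes stood at 12849 CPM in spots 1 pitch away and at 3059 CPM over 3 to 6 pitches away, and at 4355 CPM beyond 24 pitches. On Day 14 the corresponding values were 10965 and 3242 CPM, and 1097 CPM at over 12 to 24 pitches. On Day 7 the level was 35163 CPM at 1 pitch, 19054 CPM over 1 to 3 pitches and 5602 CPM over 6 to 12 pitches, but 7898 CPM beyond 24 pitches. The Day 7 slide thus carried a broad floor of 5602 to 7898 CPM far from any patch, close to the 6838 CPM under its marked tissue.

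On Day 3 a patch reached into the marked tissue. The highest marked spot held 937 UMIs of the 10 genes among 10424, or 8.99%, and the second held 771 among 10365. The 10 highest marked spots held 32.6% of the member UMIs and 3.24% of all UMIs under tissue. On Days 7 and 14 the highest marked spot held 263 of 23909 and 59 of 12499 UMIs. The Day 3 level under tissue therefore rested on few spots, and without the 10 highest spots of each section the log2 ratio of Day 7 to Day 3 was 0.84 in place of 0.35.

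How few spots carry a gene was read from the smallest share of marked spots that holds 50% of its UMIs. For Adipoq that share was 3.16%, 18.8% and 8.18% in order of day, and for the 10 genes together 5.27%, 25.7% and 21.7%. All UMIs took 13.9%, 23.7% and 22.8%. Together, the genes were far more concentrated than all RNA on Day 3, and not on Days 7 and 14. Adjacent marked spots were alike in the genes on all days, however. Moran's I of the summed genes, a measure of likeness between neighbours that is near 0 without any, was 0.21, 0.35 and 0.25, above 93.8%, 99.4% and 97.6% of single genes, most of which have far fewer UMIs than the sum. For Adipoq alone it was 0.089, 0.13 and 0.045, above 72.2%, 92.8% and 60.9% of genes. On Day 14 the count itself limits the share of Adipoq, which had 202 UMIs in 158 spots. Outside the mark the genes together took 0.555%, 1.08% and 1.77% of spots, against 4.69%, 9.43% and 11.9% for all UMIs.

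On Day 3 the marked patch lay beside muscle and away from epidermis. Spots are called rich in a list where its level is at least 2 times that of the section and at least 5 of its UMIs are present. Spots 1 to 2 pitches from the 188 muscle-rich spots held the 10 genes at 15539.8 CPM, against 4329 CPM in the muscle-rich spots themselves and 2041 CPM beyond 8 pitches. Spots over 8 pitches from the epidermis-rich spots held 15039 CPM, against 2295 CPM in the 40 epidermis-rich spots. On Day 7 the spots 1 to 2 pitches from muscle again held the most, 9171 CPM against 4411 CPM in muscle-rich spots. On Day 14 the highest band lay over 2 to 4 pitches from muscle, at 1938 CPM, against 959.9 CPM in muscle-rich spots.

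Single genes took other places than the sum. Lpl was higher in muscle-rich spots than in the rest on Day 3, at a log2 ratio of 0.89 (0.66 to 1.12), where the members together were lower, at -0.37 (-0.45 to -0.28). With a stricter threshold of 4 times the section's level, 52 muscle-rich spots remained and the excess of Lpl was gone, at -0.28 (-0.94 to 0.32). On Day 14 Lpl again leaned to spots past 2 times, at 0.42 (0.08 to 0.75). Lpl was also higher in macrophage-rich spots on Day 7, at 0.80 (0.57 to 1.03), and on Day 14, at 0.53 (0.16 to 0.89), but lower there on Day 3, at -0.53 (-0.87 to -0.19). On Day 7 it was higher in the 17 spots rich in adipocyte progenitor genes, at 1.17 (0.87 to 1.45). Pparg had 10 of its 57 Day 14 UMIs in sebaceous-rich spots, a log2 ratio of 1.198 (0.05 to 2.20). That ratio rests on few UMIs and is 1 of many ratios of a gene to a list. Sebaceous glands are known to use PPARγ, but their part in the Pparg UMIs was not tested. Fabp4 in endothelium-rich spots stood at 0.16 (-0.01 to 0.32) on Day 3 and 0.24 (-0.03 to 0.50) on Day 14, and at -0.41 (-0.53 to -0.29) on Day 7. In the 6 spots past 4 times on Day 3 it stood at 1.095 (0.70 to 1.46), on 60 UMIs.

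Agreement between the genes was read by ranking spots of at least 100 UMIs on the other 9 genes and asking what share of a gene's UMIs lay in the top 10% of spots. Under tissue on Day 3 this share was 60.6% for Adipoq, 59.4% for Cidec, 58.9% for Plin1, 54.4% for Retn, 53.6% for Cfd and 46.4% for Fabp4. About 9.1% of all UMIs lay in those spots. Plin4, at 36.8%, Lpl, at 36.0%, and Pparg, at 28.8%, agreed less with the rest, and only 2 of the 12 Lep UMIs lay there. The median over the 10 genes was 50.04%, which is 5.52 times the share of all UMIs. Spots were ranked on summed UMIs, of which Cfd and Fabp4 held 4307 and 2913 of 9535 on Day 3 under tissue. The shares are thus mostly a measure of agreement with Cfd and Fabp4.

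That agreement was weak in the other 2 marked sections, where 8 and 9 of the 10 genes had a larger share than all UMIs. The median share was 12.2% on Day 7 and 13.2% on Day 14, which is 1.67 and 1.97 times the share of all UMIs. With each spot thinned to 1000 UMIs, which left 426, 525 and 679 spots, the enrichment under tissue was 4.25, 1.32 and 1.75. Outside the mark it held on all days. There the median share was 71.3%, 65.8% and 56.7%, or 4.401, 2.85 and 7.11 times that of all UMIs, and 5.95, 3.90 and 5.32 times after thinning. Thinning left 360, 1477 and 1282 of the outside spots. Outside on Day 14, Adipoq at 69.4%, Cidec at 69.1% and Retn at 66.9% led, and Plin4 at 41.4% and Pparg at 40.5% came last.

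**Figure D4:**
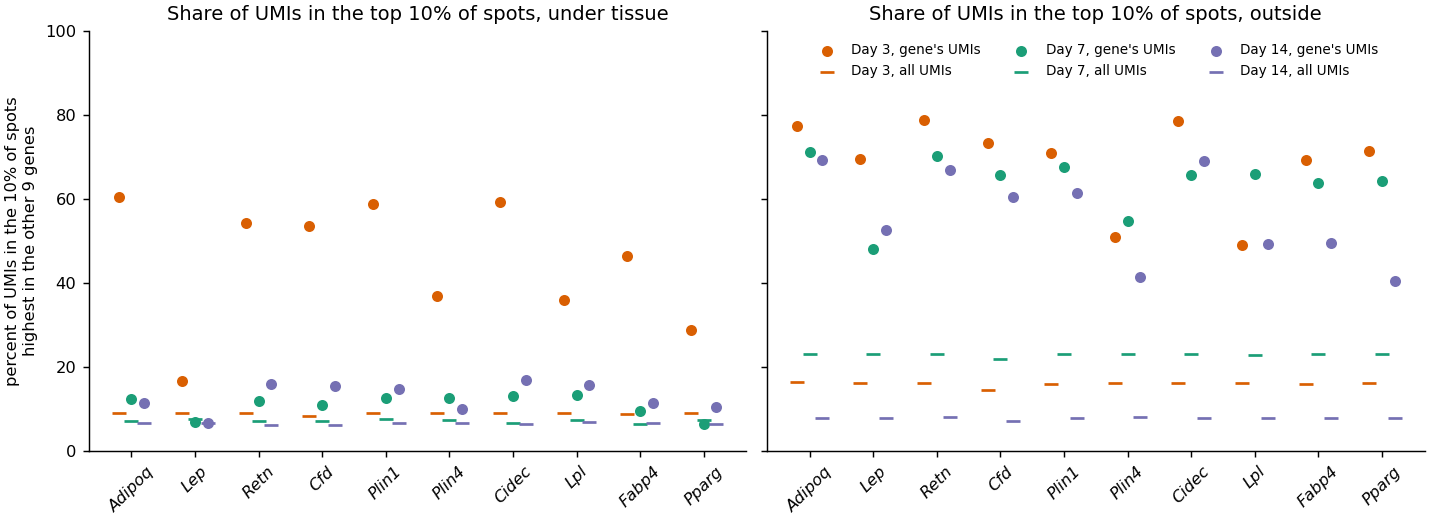
Percent of each gene's UMIs in the 10% of spots highest in the other 9 genes (dots) beside the percent of all UMIs in the same spots (dashes), under tissue on the left and outside on the right. Under tissue the Day 3 dots lie well above the dashes for all genes but Lep, while those of Days 7 and 14 lie near them, and outside the dots of all days stand apart.

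Before thinning, pairwise correlations separated days and areas less. After thinning, their median was higher outside than under tissue on each day. Over the 45 pairs of genes, the median Pearson r across the 571, 548 and 696 marked spots of Days 3, 7 and 14 was 0.20, 0.16 and 0.08. After thinning it was 0.16, 0.04 and 0.00075. The highest pair under tissue was Retn with Cidec on Day 3 (0.42), Cfd with Fabp4 on Day 7 (0.54) and Retn with Cfd on Day 14 (0.30). Outside, the medians were 0.18, 0.16 and 0.17, and after thinning 0.29, 0.17 and 0.20. Before thinning, the Day 7 median under tissue was thus not below that outside. Thinning kept 360, 1477 and 1282 of the 2075, 4398 and 4286 outside spots, so it also changed which spots were compared. The spots of a section share a library, depth and neighbours, so these values are descriptions.

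The balance between the genes was read as UMIs per Adipoq UMI in the same pool, a scale on which the total UMI count cancels. Retn kept a near-constant ratio, at 1.32 (1.13 to 1.53), 1.34 (1.23 to 1.46) and 1.18 (0.97 to 1.43) on Days 3, 7 and 14 under tissue, and 1.33, 1.17 and 1.14 outside. Cfd ran at 13.8, 11.9 and 11.1 under tissue and 12.2, 10.9 and 10.5 outside. For both genes the intervals of the 3 days overlapped in each area. Overlap does not show that the ratios were equal, and Cfd was highest on Day 3 in both areas.

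Other genes did not keep that balance. Cidec was highest relative to Adipoq on Day 3, at 1.39 (1.199 to 1.61) against 0.767 (0.693 to 0.848) on Day 7 under tissue, and at 1.31 against 0.657 outside. Plin1 went the other way, at 0.233 (0.178 to 0.302) on Day 3 and 0.391 (0.344 to 0.443) on Day 7, and at 0.241 and 0.365 outside. Fabp4 was highest on Day 7 in both areas, at 15.9 under tissue and 10.6 outside, against 9.31 and 8.002 on Day 3. The order of Days 3 and 7 was thus the same under tissue and outside for each of these 3 genes.

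On Day 14, Plin4 stood at 1.73 UMIs per Adipoq UMI (1.45 to 2.06) under tissue against 0.600 (0.538 to 0.669) on Day 7, and at 0.978 against 0.356 outside. Lpl stood at 3.58 against 1.87 under tissue and 2.59 against 1.54 outside. Both genes were high relative to Adipoq on Day 14, in a section where Adipoq was low. Lep ran at 0.0383, 0.146 and 0.223 under tissue, where Day 3 was the lowest, and at 0.0422, 0.0630 and 0.101 outside. Pparg was at 0.166, 0.0862 and 0.282 under tissue, but at 0.0756, 0.0597 and 0.0769 outside, where the intervals of the 3 days overlapped. Relative to Adipoq, Pparg thus differed between Days 7 and 14 beyond counting error under tissue, and not detectably outside.

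**Figure D5:**
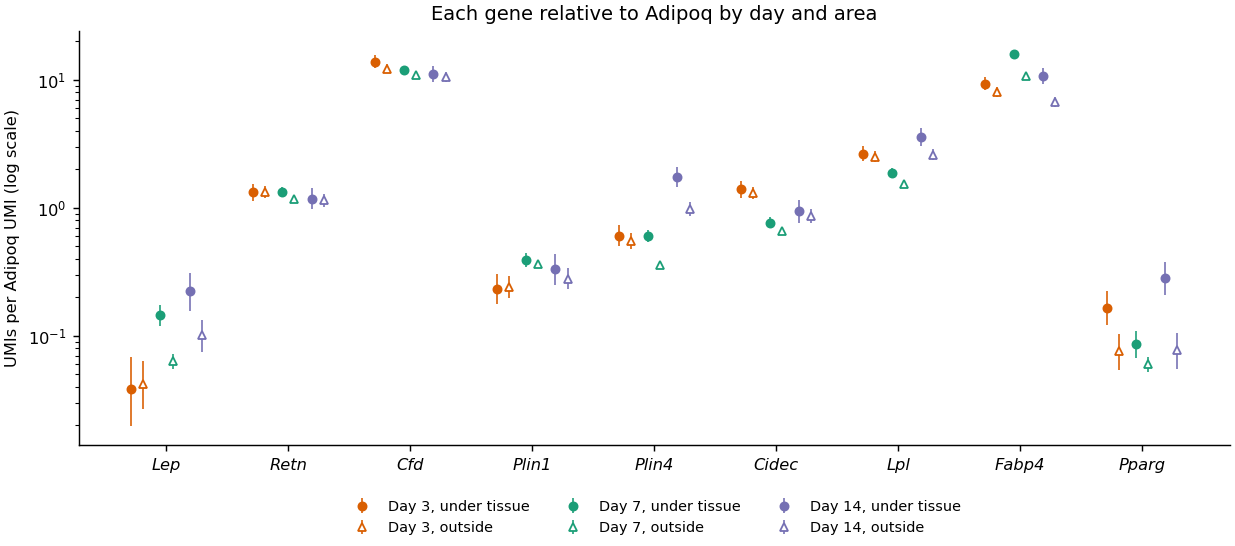
UMIs of each gene per UMI of Adipoq in the same pool (log scale), filled under tissue and open outside, with exact 95% intervals of counting error. Retn and Cfd vary least over the days, while Cidec is highest on Day 3 and Plin4 on Day 14.

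Brown fat shares most of these genes, and its markers were checked. Ucp1, the uncoupling protein of brown fat, had 0 of 1772259 UMIs under tissue on Day 3, which allows a level of up to 1.69 CPM, 430 UMIs (96.8 CPM) on Day 7 and 6 UMIs (1.301 CPM) on Day 14. Outside it had 0, 2007 and 3 UMIs, or 311 CPM on Day 7. Nearly all Ucp1 UMIs were thus on the Day 7 slide. The 50 highest spots of Day 7 held 361 of its 2437 UMIs. Cidea, a droplet gene of brown fat that sebaceous glands also express, had 165, 278 and 203 UMIs under tissue and 38, 1057 and 104 outside. The brown fat list of 10 genes summed to 1072, 691 and 738 CPM under tissue and 2219, 2082 and 1526 CPM outside, with Cox8b and Cox7a1, which muscle also uses, giving most of it. Spots rich in this list numbered 76, 64 and 107 under tissue on Days 3, 7 and 14. With Ucp1 absent or nearly so on Days 3 and 14, the spots of these days are not read as brown fat. Leaving out the rich spots of every day, the Day 14 over Day 7 log2 ratio of the members was -2.29. The call of Lep between Days 7 and 14 was then lost, at -1.41 (-1.95 to -0.90), as was that of Plin1 between Days 3 and 14, at -1.45 (-1.96 to -0.94). Since muscle also uses the genes that give most of the list, these values cannot show what brown fat adds. The part of brown fat in the Day 7 levels was not tested.

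Other genes of fat metabolism, from lists named in the methods, followed the members in part. Between Days 7 and 14 under tissue, 3.69% of all genes tested were called lower and 5.7% higher. Of 8 genes of adipocyte transport and membrane, 5 were called lower on Day 14 than on Day 7. They were Cd36, a fatty acid carrier, at -1.76, Aqp7, a glycerol channel, at -2.18, Aoc3 at -2.40, Trarg1 at -2.67 and Adrb3, the adrenergic receptor of adipocytes, at -2.48. The median of the list was -1.97, beside 0.13 for all genes tested, and its genes with the most UMIs, the caveolar genes Cavin1 (-0.43) and Cav1 (-1.02), were not called. Of 8 genes of triglyceride synthesis, Agpat2 (-2.12), Gpd1 (-1.42) and Pck1 (-3.01) were called lower and the median was -0.99.

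Genes of de novo lipogenesis were mixed. Acaca (-1.65), Fasn (-1.54) and Thrsp (-3.95) were called lower on Day 14 than on Day 7, Elovl6 was called higher (1.24), and the median of the 9 genes was -0.08. Scd1, the gene of the list with the most UMIs, stood at 0.09 (0.05 to 0.13). Of the 7 genes of lipolysis and droplet turnover with enough UMIs, Pnpla2, the main triglyceride lipase, was called lower (-1.18), Mgll, a monoglyceride lipase, stood at 0.54 without a call, and the median was -0.38. None of 7 adipogenic transcription factors was called, with a median of 0.38 and with the C/EBP genes Cebpb at 1.08 and Cebpa at 0.35. In the list of adipocyte progenitor genes, Pdgfrb (-1.44) and Dlk1 (-3.50) were called lower, Ly6a (0.24) and Cd34 (-0.63) were not called, and the median of the 8 was -0.34.

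From Day 3 to Day 7 few of these genes were called under tissue, where 2.5% of all genes tested were called higher and 3.16% lower. Gpd1 was called higher (1.26), and Mgll (-1.22), Elovl6 (-1.34), Cebpb (-1.34) and the progenitor gene Ly6a (-1.18) were called lower, while Dlk1 (2.996) was called higher. Outside over under tissue, triglyceride synthesis stood out on Day 7, with Lpin1 (1.45), Dgat2 (1.40), Gpd1 (1.14), Acsl1 (1.22) and Pck1 (1.72) called higher and a median of 1.18 beside -0.38 for all genes. Pnpla2, Fasn, Thrsp, Klf15 and Adrb3 were also called higher outside on Day 7, and Pck1 (1.59) and Thrsp (2.09) on Day 14, against 1.05% of all genes that day. Called lower outside were Elovl6 on Days 3 and 14, Cd34 and Ly6a on Day 3 and Dlk1 on Day 7. Of all genes tested, 3.64%, 1.94% and 1.49% were called lower outside on Days 3, 7 and 14. The Day 14 medians ran from -0.67 for the progenitor list to 0.89 for transport and membrane, beside -0.54 for all genes.

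Markers of the other cell types of skin differed between the sections as well. Between Days 7 and 14 under tissue, 9 of 10 epidermis genes and 7 of 9 sebaceous genes were called higher, against 5.7% of all genes tested. Called lower were 6 of 10 macrophage genes, 6 of 10 endothelial genes and 6 of 10 matrix fibroblast genes, against 3.69%. None of 10 muscle genes was called. Of the neutrophil list, all 7 genes tested were called lower on Day 7 than on Day 3, against 3.16% of all genes. The summed macrophage list, for instance, stood at 4632, 2955 and 1191 CPM and the endothelial list at 987, 790.01 and 410.5 CPM under tissue. Their part in the levels of Fabp4 and Lpl was not tested.

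The genes whose place was most like that of the 10 genes were found among 2977 genes with at least 100 UMIs in every marked section, by the smallest of the 3 Pearson r with the sum of the members. Under tissue they were Scd1, the main fatty acid desaturase, with r of 0.29, 0.54 and 0.39 on Days 3, 7 and 14, then Gsn, Hp, Ctsb, H2-D1, Apoe, H2-K1, Rplp0, Col1a2 and Fasn. The median r over all genes was 0.04, 0.06 and 0.06. These r and those below were not repeated after thinning, so the part of spot depth in them was not tested. Outside, among 2234 genes, they were Ifi27l2a (0.22, 0.23 and 0.24), Cdo1, Hp, Dbi, Cyp2e1, Scd1, Pck1, Dgat2, Pnpla2 and Trf. The outside list thus held the fat metabolism genes Scd1, Pck1, Dgat2 and Pnpla2, whereas the list under tissue held Scd1 and Fasn beside collagen and histocompatibility genes. By section, the first 3 were Cyp2e1, Chpt1 and Cdo1 under tissue on Day 3, Fasn, H2-K1 and Scd1 on Day 7, and Col1a2, Col1a1 and Scd1 on Day 14.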

How the data were processed

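Per the labels and the submitters' processing notes, the authors ran Space Ranger 1.3.0 on mm10 and deposited raw UMI counts per gene and spot, with a mark of the spots under tissue. The members and gene lists were chosen with earlier results of these data known. Spots were split by the deposited tissue mark, UMIs were summed over spots, and CPM (UMIs per 1000000) was computed with exact Poisson 95% intervals; ratios had exact conditional binomial intervals (SciPy 1.17.1, NumPy 2.4.6, pandas 2.3.3, Python 3.11.15). Intervals cover counting error only. With 1 section per day no p-value was computed. TMM factors (edgeR 4.0.16) and DESeq2 1.42.0 size factors in R 4.3.3 were alternatives. The code was tested on simulated data. Named genes were all 10 members, the 2 genes of other lists with the most UMIs, Ucp1, Cidea, list genes called where a count is given (for lists of other cell types, counts only), and the 10 most alike genes plus the first 3 of each section. The lists named in the report are lipolysis and droplet turnover, triglyceride synthesis, de novo lipogenesis, adipogenic transcription factors, transport and membrane, progenitors, and markers of other cell types. Gene positions are from GENCODE vM21 (GRCm38), matched by identifier.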

Additional observations from a re-analysis of the deposited data

Results flagged for a closer look

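Where the genes lay relative to epidermis, sebaceous glands, macrophages and progenitors took opposite directions in the sections of different days where spots were called rich at 2 times the section's level. The difference between days was not tested, since each day is 1 section. Values are log2 ratios of the level in spots rich in a list over the other marked spots, in the order Day 3, Day 7 and Day 14. In epidermis-rich spots the 10 genes together stood at -1.35, 0.23 and -0.68, Cfd at -1.33, 0.29 and -0.62, and Fabp4 at -1.17, 0.22 and -0.61. With spots rich at 4 times the section's level the Day 7 values were 0.093 (-0.0023 to 0.187), 0.127 (-0.034 to 0.284) and 0.098 (-0.042 to 0.235), all holding 0. In sebaceous-rich spots the 10 genes stood at -1.03, 0.32 and -0.19, and at 4 times the Day 7 value was 0.113 (-0.14 to 0.355), again holding 0. In macrophage-rich spots Lpl stood at -0.53, 0.80 and 0.53, and 4 times left 1 such spot on each of Days 3 and 7. In spots rich in adipocyte progenitor genes, the 10 genes stood at -0.73 on Day 3 and 0.11 on Day 7, and Lpl at -0.48 on Day 3 and 1.17 on Day 7.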

How the results depend on the processing

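No paired analysis was possible because each day has 1 section. Log2 ratios of the 10 genes together kept their sign under every alternative but the one without Cfd and Fabp4. For Day 7 over Day 3 (0.35) the value was 0.44 as a mean over single spots, 0.70 over all spots of the slide, 0.84 without the 10 highest spots and -0.068 without Cfd and Fabp4. For Day 14 over Day 7 (-2.33) it was -2.29 less muscle and mitochondrial genes, -2.43 with TMM factors, -2.45 with DESeq2 size factors, -2.48 over all spots, -2.38 without the 10 highest spots and -1.62 without Cfd and Fabp4. For Day 14 over Day 3 (-1.98) it was -1.88 as a mean over single spots, -2.08 with TMM factors, -2.11 with DESeq2 size factors, -1.79 over all spots, -1.54 without the 10 highest spots and -1.69 without Cfd and Fabp4. Genes called higher on Day 7 than on Day 3 numbered 3 over all spots and 2 without the 10 highest spots, in place of 1. Those called lower numbered 7 to 9 between Days 7 and 14 (Lep lost without spots rich in the brown fat list, Pparg gained over all spots) and 6 to 7 between Days 3 and 14 (Plin1 lost). Outside over under tissue, the mean over single spots gave 0.039, 0.38 and 0.95 for Days 3, 7 and 14, in place of 0.76, 1.13 and 1.04. Outside spots at least 3 pitches from the mark gave 0.50 on Day 3 and 1.26 on Day 7, and leaving out Cfd and Fabp4 gave 0.85 and 1.23. The Day 14 agreement under tissue was 2.96 in the top 5% of spots, in place of 1.97. Of 240 alternatives of single genes between days, 4 changed sign. The cause was not tested.

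The emptiest spots, the 50 highest spots, distance bands, ratios to Adipoq, counts of calls under alternatives and levels without a top spot were chosen after seeing the data. Depth limits Lep and Pparg most, with at most 130 UMIs under tissue in a section.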
